A study of Mus musculus with 18 samples.

Results

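Forkhead genes encode transcription factors that bind DNA through a shared winged-helix domain. All genes of the count table whose mouse symbol is Fox, a letter from a to s and a number alone were taken as the family, without antisense or opposite-strand symbols, which gave 40 of 24376 genes. Members divide into lettered subfamilies with separate duties. Foxi3, Foxe1, Foxq1 and Foxn1 act in hair, teeth and other ectodermal appendages, Foxm1 drives the transcription of mitotic genes, FoxO proteins are held out of the nucleus by insulin and growth factor signalling, and FoxA proteins open chromatin for hormone receptors in the adult mammary gland. The mammary bud is itself an ectodermal appendage, and β-catenin, the transcriptional effector of Wnt signalling, is needed for appendages of this kind to start.

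The epithelium of mammary buds 1 to 3 was the source of RNA, from mouse embryos of a mixed C57Bl/6 and NMRI strain, cut out by hand after Dispase II and Pancreatin-Trypsin treatment of ventral skin. Stabilized embryos were Krt14Cre; Ctnnb1 flox3/wt, and control embryos were littermates with Ctnnb1 flox3/wt and no Cre, so the controls carried the floxed allele as well. Cre was driven by the promoter of Krt14, a keratin of basal epithelium, and its removal of exon 3 leaves 1 allele that makes a β-catenin without the residues that mark it for destruction. There were 4 stabilized and 4 control libraries at embryonic stage E13.5, where both sexes were taken, and 5 of each genotype at E16.5, where embryos were female. Each library pooled 2 to 3 embryos of 1 litter and genotype, and the litter behind each library is not given, so libraries may share one. P-values therefore measure the spread between pooled samples, and stage cannot be told apart from the sex makeup of the pools. The part of sex in the E13.5 genotype comparison and in the change of genotype effect was not tested.

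Library totals ran from 26768810 to 36922108 counts. Levels are given as CPM, the usual depth-scaled count of edgeR with library sizes adjusted by its TMM method, with the SD over the libraries of a group. A difference was called when the adjusted p of the edgeR quasi-likelihood test, adjusted over all 17269 genes tested, was under 0.05. Ctnnb1 reached 3260.0 ± 347 CPM in stabilized and 2683 ± 333 CPM in control epithelium at E13.5 (n = 4 each, edgeR adjusted p = 0.307), and 2278 ± 564 and 1248 ± 111 CPM at E16.5 (n = 5 each, edgeR adjusted p = 9.02e-05). These gene totals do not show exon 3 and so do not check the allele. Krt14 was detected in all 18 libraries and was lower in stabilized than in control epithelium at E13.5, at 349 ± 62.9 against 813 ± 104 CPM (edgeR adjusted p = 0.00169). A control library of E13.5 (replicate 3) had 4.18% of its counts on mitochondrial genes, the other 3 having 2.18 to 2.50%, and a stabilized library of E16.5 (replicate 4) had 20719 genes detected, the other libraries having at most 18540. At E16.5 the mitochondrial share ran from 2.62 to 5.36% in stabilized and from 2.21 to 3.88% in control libraries. The part of these library differences in the genotype results was not tested, beyond the values given without a library.

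Of the 40 members, 16 had at least 1 CPM in every library, and 20 reached a group mean of 5 CPM in at least 1 group. The filter on low counts left 31 members for testing. The other 9 never exceeded 0.883 CPM in any library. Because the filter keeps a gene that is high in 1 group alone, the counts of members below describe the members and are not set up as a test of the family.

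**Figure D1:**
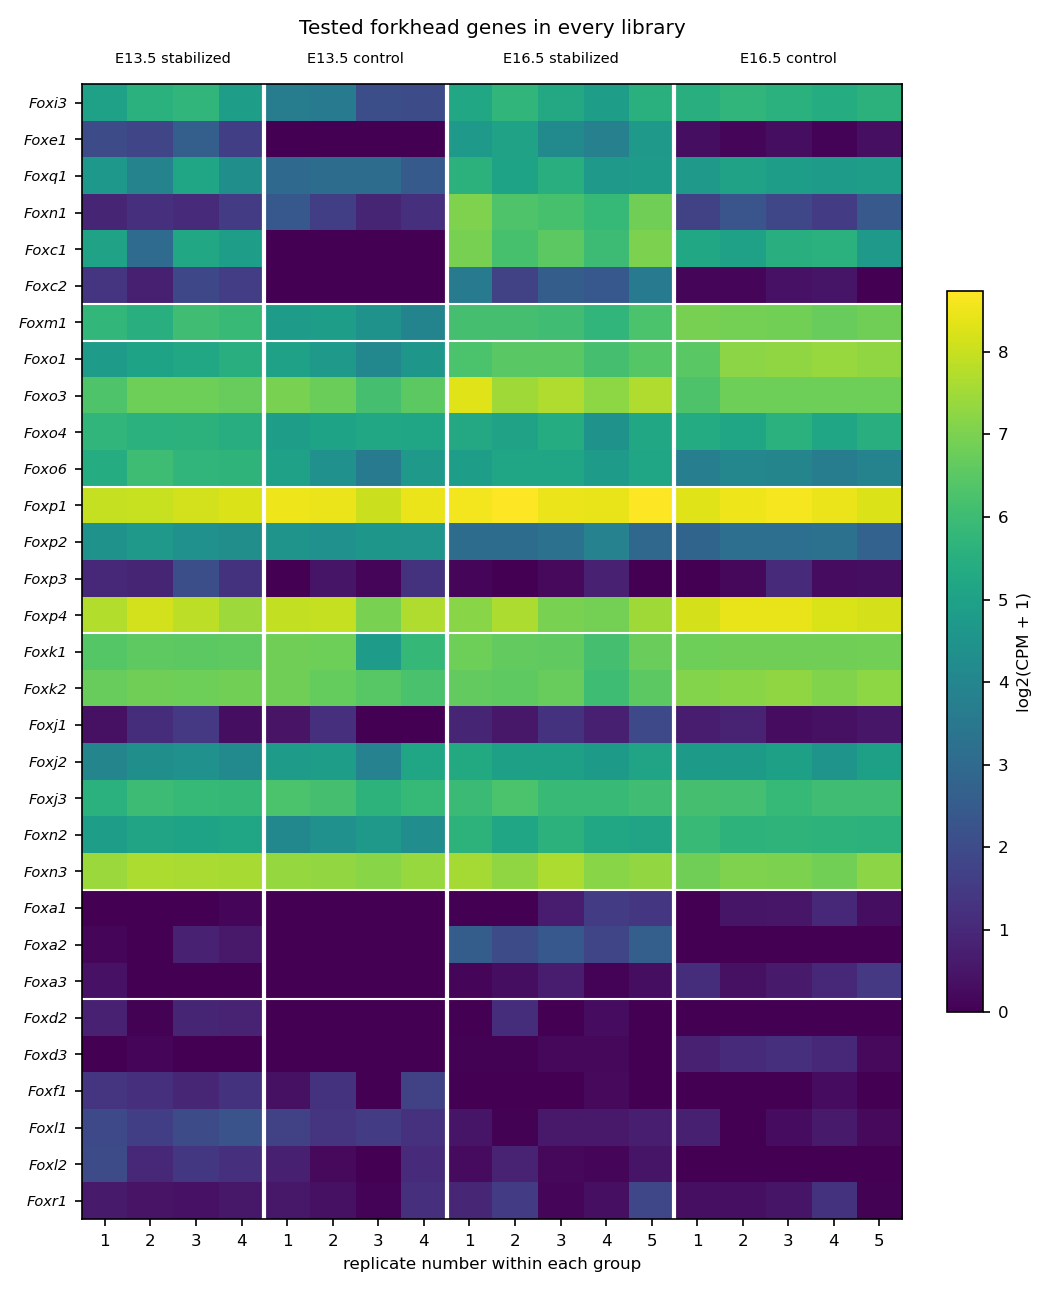
Level of the 31 tested forkhead genes (rows) in each of the 18 libraries (columns), as log2(CPM + 1), with stabilized left of control at each stage. White horizontal lines part the appendage genes, Foxm1, FoxO, FoxP, the FoxK, FoxJ and FoxN genes, FoxA and the rest; 16 rows stay at 1 CPM or more throughout, and Foxe1, Foxc1 and Foxc2 are at 0 in every E13.5 control library.

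Per kilobase of exon, Foxp4 had the highest mean of the forkhead genes in 3 of the groups. The length merged all annotated exons of a gene, giving 4926 bases for Foxp4, 13751 for Foxp1 and 1281 for Foxi3, so the order depends on these lengths. Not scaled by length, Foxp1 had a higher mean CPM than Foxp4 in every group. In E16.5 stabilized epithelium Foxi3 averaged 40.2 CPM, against 387 CPM for Foxp1. Foxp4 averaged 45.4 CPM per kb in stabilized and 41.8 CPM per kb in control epithelium at E13.5. Its libraries there overlapped those of the next gene, Foxi3 in stabilized and Foxp1 in control epithelium. At E16.5 Foxp4 averaged 31.2 CPM per kb in stabilized and 63.7 CPM per kb in control epithelium. In E16.5 controls its libraries lay wholly above those of the next gene, Foxi3, at 36.2 CPM per kb. In E16.5 stabilized epithelium Foxi3 (31.4 CPM per kb), Foxp4, Foxn1 (28.2), Foxp1 (28.1) and Foxo3 (27.9) followed each other with overlapping library ranges, and Foxk2 stood below Foxo3 without overlap at 17.2 CPM per kb. Foxn1 was not among the top 12 in any other group.

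Members that behaved alike did not sit together as whole blocks. Foxq1 and Foxc1 lie on chromosome 13 with Foxf2 between them, 64.8 kb from Foxq1 and 175 kb from Foxc1, and Foxf2 was among the genes too low to test. Foxc2 lies on chromosome 8 between Foxf1, at 28.0 kb, and Foxl1, at 9.04 kb, which had at most a group mean of 1.28 and 2.89 CPM. Of the 40 members, 12 have all their annotated sequence in 1 exonic block. For 3 genes whose genotype patterns differed, the RefSeq promoter (GRCm38.p6, mm10) is printed below with each GC box (GGGCGGG or its reverse complement) in capitals. The Foxc1 and Foxi3 windows stop at the base before the first GENCODE exon, and the Foxn1 window stops at its RefSeq start site. They show a gene that was at 0 in the earlier controls, a gene whose genotype difference was found at E13.5 and a gene whose genotype difference was found at E16.5. The Foxc1 window is chr13:31806396-31806632 on the plus strand, the Foxi3 window chr6:70956356-70956530 on the plus strand and the Foxn1 window chr11:78386609-78386858 on the minus strand.
Foxc1: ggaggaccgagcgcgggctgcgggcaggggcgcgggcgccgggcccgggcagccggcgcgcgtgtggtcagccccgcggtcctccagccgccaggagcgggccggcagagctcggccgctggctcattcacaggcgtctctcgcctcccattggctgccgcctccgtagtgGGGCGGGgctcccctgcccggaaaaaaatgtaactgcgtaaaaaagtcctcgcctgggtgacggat
Foxi3: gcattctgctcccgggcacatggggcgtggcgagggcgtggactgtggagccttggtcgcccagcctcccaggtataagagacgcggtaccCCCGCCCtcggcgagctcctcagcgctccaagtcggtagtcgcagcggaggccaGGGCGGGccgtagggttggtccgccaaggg
Foxn1: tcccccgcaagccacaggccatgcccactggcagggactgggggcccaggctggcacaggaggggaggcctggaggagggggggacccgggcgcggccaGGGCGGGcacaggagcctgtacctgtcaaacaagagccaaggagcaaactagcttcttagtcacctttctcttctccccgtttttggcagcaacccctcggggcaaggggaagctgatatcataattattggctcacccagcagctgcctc

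RefSeq promoters were at hand for 25 members, with 30 start sites, and the 250 bases before each start were searched on both strands. Foxc2, Foxe1, Foxm1, Foxn2, Foxo4, Foxo6 and Foxq1, all called higher in stabilized epithelium at E13.5 (below), had no promoter at hand and were not searched. A GC box was present in 17 of the 25 members and in 18 of the 30 promoters, against 23.4% of all 32851 promoters of that length. The same windows had a median GC content of 63.0% for forkhead promoters and 52.4% for all promoters, and the motif is itself GC-rich. The TCF/LEF core ATCAAAG, the sequence read by the DNA-binding partners of β-catenin, was found in 0 of the 25 members and in 3.21% of all promoters, which says only that these letters are not in these windows. The forkhead core TGTTTAC was found in Foxa1 alone, against 3.17% of all promoters. The TTTGAA element of many mitotic genes was found in Foxn3, Foxp1 and Foxp3, against 16% of all promoters.

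At E13.5, 10 of the 31 tested members were higher in stabilized than in control epithelium and 0 were lower, with 14.9% of all tested genes called in either direction (9.58% higher, 5.29% lower). The 10 were Foxa2, Foxc1, Foxc2, Foxe1, Foxi3, Foxm1, Foxn2, Foxo4, Foxo6 and Foxq1. DESeq2 also called 10 higher and 0 lower, and 16 members had an unadjusted edgeR p under 0.05. Without E13.5 control replicate 3, the 0 lower calls became 2 (Foxj2 and Foxp1). In such bulk samples, fewer cells of a type and less RNA per cell cannot be told apart. At E16.5, 10 members were higher (Foxa2, Foxc1, Foxc2, Foxd2, Foxe1, Foxl2, Foxn1, Foxn3, Foxo3 and Foxo6) and 5 were lower (Foxd3, Foxk2, Foxm1, Foxo1 and Foxp4), with 41.7% of all tested genes called (22.2% higher, 19.4% lower). The members' share of 48.4% was near that background. The median log2 fold change of the members was 0.69 at E13.5, or 0.55 with genes at 0 in 1 group set to their bound, and 0.25 at E16.5, against 0.01 and 0.10 over all tested genes.

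**Figure D2:**
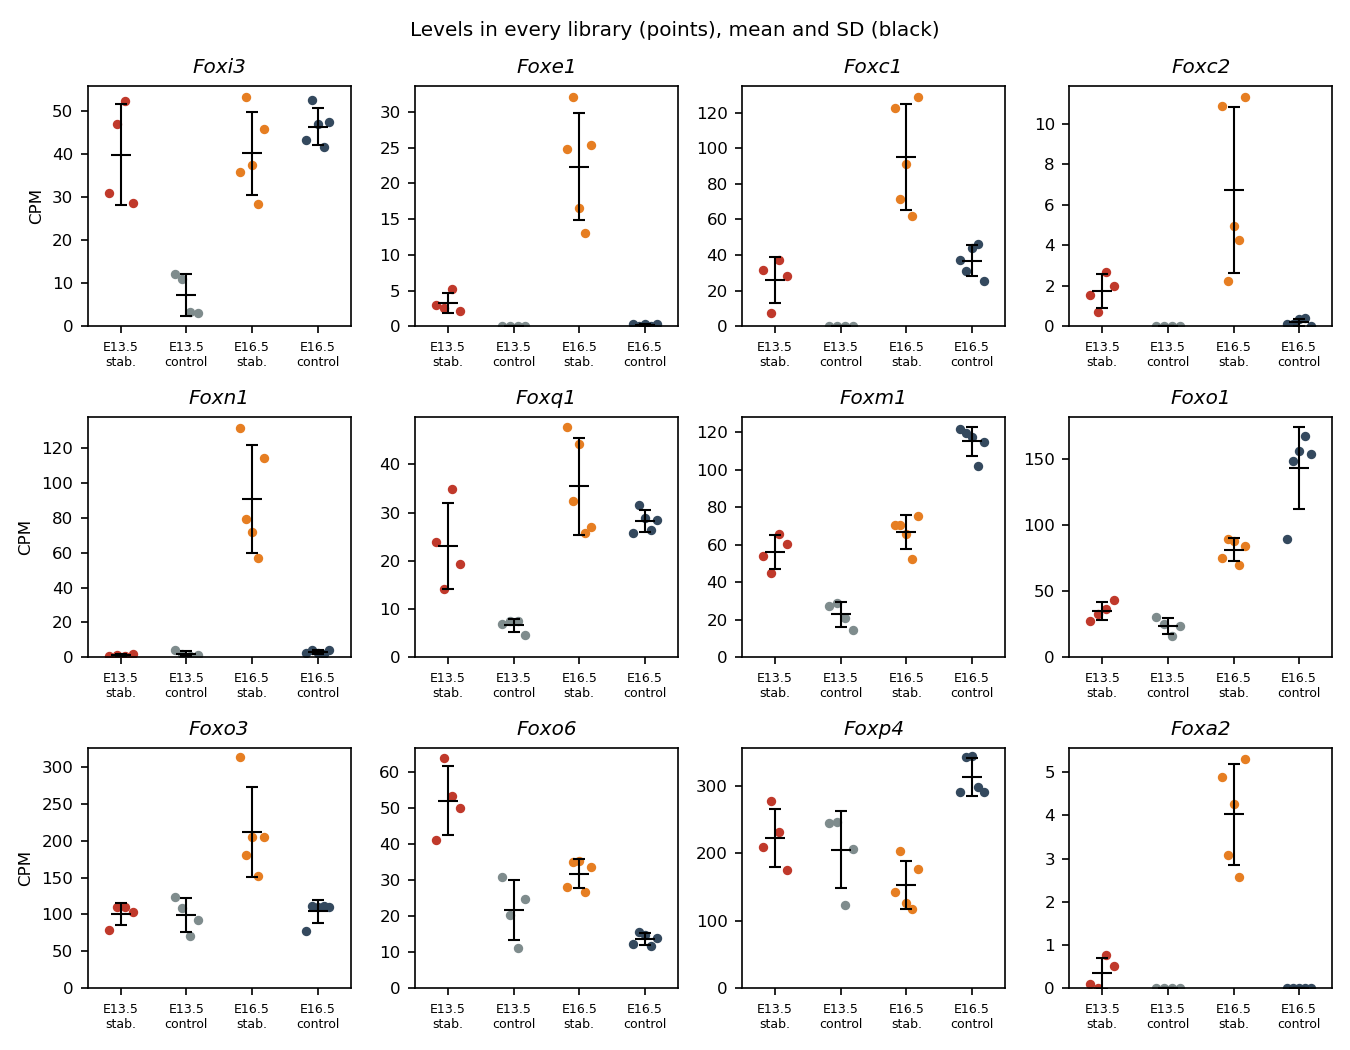
Level in CPM (vertical axes, linear from 0) of 12 forkhead genes in each library (points), with the group mean and SD in black, stabilized left of control at each stage. Foxi3, Foxq1 and Foxm1 stand apart by genotype at E13.5, Foxn1 at E16.5, and Foxc1, Foxc2 and Foxe1 are at 0 in all 4 E13.5 control libraries.

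Foxi3, which is induced by ectodysplasin signalling in placodes and is mutated in hairless dog breeds, differed between genotypes at E13.5 and not detectably at E16.5. At E13.5 it had 31.1, 47.0, 52.5 and 28.7 CPM in the stabilized libraries, against 12.1, 10.9, 3.31 and 3.04 CPM in the control libraries. All 4 stabilized libraries lay above all 4 controls, and the controls themselves fell into a higher and a lower pair. The difference was 5.41-fold (log2 2.43 ± 0.37 SE, edgeR adjusted p = 0.000156). In E16.5 epithelium Foxi3 had 35.9, 53.3, 37.6, 28.4 and 45.8 CPM in stabilized libraries, against 43.3, 52.6, 46.9, 41.7 and 47.5 CPM in controls. The groups overlapped there, and the log2 difference of −0.21 ± 0.32 did not pass (edgeR adjusted p = 0.637). The change in the genotype effect between stages passed, at −2.64 ± 0.48 (edgeR adjusted p = 0.000397). In control epithelium Foxi3 was 6.30-fold higher at E16.5 than at E13.5 (edgeR adjusted p = 1.14e-05).

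Foxq1, which shapes the medulla of the hair shaft in mice, was likewise called at E13.5 and not at E16.5. It had 23.97, 14.1, 34.8 and 19.4 CPM in stabilized libraries at E13.5, against 6.95, 7.55, 7.42 and 4.53 CPM in controls. The genotypes did not overlap, and the difference was 3.49-fold (log2 1.80 ± 0.26, edgeR adjusted p = 4.84e-05). By E16.5 Foxq1 stood at 47.6, 32.4, 44.2, 25.7 and 27.1 CPM in stabilized libraries, against 25.7, 31.6, 28.9, 26.4 and 28.4 CPM in controls, with overlap and no call (log2 0.33, edgeR adjusted p = 0.254). The genotype effect was smaller at E16.5 than at E13.5, with a log2 change of −1.47 ± 0.34 (edgeR adjusted p = 0.00208). In controls Foxq1 was 4.26-fold higher at E16.5 than at E13.5 (edgeR adjusted p = 1.28e-06). Of the exonic length of Foxq1, 66.1% is shared with A530084C06Rik on the opposite strand, and with the strand setting not given, reads of these genes cannot be told apart.

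Foxe1, a Hedgehog-responsive factor of the hair follicle and the thyroid, was higher in stabilized epithelium at both stages. At E13.5 it had 2.98, 2.55, 5.27 and 2.09 CPM in stabilized libraries, and 0 counts in all 4 controls. Set against a floor of 3 counts over the control group, this was at least 137-fold higher (edgeR adjusted p = 2.88e-07). The E16.5 values of Foxe1 were 24.8, 32.0, 16.6, 13.1 and 25.3 CPM in stabilized libraries, against 0.263, 0.0970, 0.263, 0.0670 and 0.286 CPM in controls. Every stabilized library stood far above every control, at 113-fold (log2 6.81 ± 0.48, edgeR adjusted p = 9.97e-09). Within stabilized epithelium Foxe1 was 6.93-fold higher at E16.5 than at E13.5 (edgeR adjusted p = 0.000108).

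Foxc1 and Foxc2 are paralogues known for roles in the eye, vessels and mesenchyme, and Foxc1 also keeps hair follicle stem cells quiescent. Foxc1 had 31.8, 7.23, 37.004 and 28.3 CPM in stabilized libraries at E13.5, and 0 counts in every control. Stabilized replicate 2 was the lowest of its group but still held counts, and the group was at least 1108-fold above the floor of the controls (edgeR adjusted p = 2.93e-07). At E16.5 Foxc1 had 123, 71.6, 90.9, 62.1 and 129 CPM in stabilized libraries, against 37.2, 30.9, 43.9, 46.5 and 25.6 CPM in controls. The genotypes again did not overlap, but the difference was 2.59-fold (log2 1.37 ± 0.35, edgeR adjusted p = 0.00625), the controls having by then gained Foxc1 at least 1571-fold over E13.5 (edgeR adjusted p = 2.59e-08). The genotype effect differed between stages (edgeR adjusted p = 1.96e-06), with no size given because the E13.5 controls were at 0.

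Foxc2 was lower in level and had 1.54, 0.697, 2.70 and 2.00 CPM in stabilized libraries at E13.5, and 0 counts in the controls. This was at least 73.8-fold higher (edgeR adjusted p = 0.000166). Foxc2 at E16.5 reached 10.9, 2.24, 4.94, 4.28 and 11.3 CPM in stabilized libraries, against 0.117, 0.0970, 0.338, 0.402 and 0 CPM in controls. No control reached a stabilized library, and the difference was 34.7-fold (log2 5.12 ± 0.84, edgeR adjusted p = 0.000113).

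Because both FoxC genes are also known from mesenchyme, the listed mesenchyme markers were read beside them. Their summed level, over 12 of 12 markers in the table, ran from 76.4 to 255 CPM in stabilized and from 24.3 to 540.4 CPM in control libraries at E13.5, with Dpt and Meox2 at 0 in the controls. At E16.5 it ran from 389 to 683 CPM in stabilized and from 113 to 400.0 CPM in control libraries. At E13.5, 0 of the 11 tested markers passed in edgeR (1 at an unadjusted p under 0.05). Over all tested genes, 14.9% were called at E13.5 and 41.7% at E16.5. At E16.5 the median log2 fold change of the 11 was −0.58, 1 was higher in stabilized epithelium and 2 were lower. The higher one was Dcn, a proteoglycan of connective tissue, at 301 ± 74.7 CPM in stabilized and 4.02 ± 3.46 CPM in control epithelium (edgeR adjusted p = 6.21e-05), and it made up much of the summed level in stabilized libraries. The lower ones were the growth factor receptors Pdgfra and Pdgfrb (edgeR adjusted p = 0.0455 and 0.00641). Markers of Merkel cells summed to 9.59 to 30.0 CPM in stabilized and 0 to 0.401 CPM in control libraries at E13.5, and to 23.4 to 32.8 and 0.517 to 2.28 CPM at E16.5, while Atoh1, which specifies Merkel cells, was at 0 in stabilized libraries of both stages. The part of these markers in the FoxC values was not tested.

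Foxn1, the gene of the nude mouse, which turns on hair keratin genes and is needed in the thymus, differed between genotypes at E16.5. At E13.5 it had 0.855, 1.33, 1.04 and 1.9 CPM in stabilized libraries, against 4.26, 2.08, 0.870 and 1.33 CPM in controls, with overlap and no call (log2 −0.74, edgeR adjusted p = 0.307). In E16.5 epithelium Foxn1 had 131, 79.4, 71.9, 57.1 and 114 CPM in stabilized libraries, against 2.22, 3.98, 2.59, 1.94 and 4.46 CPM in controls. The lowest stabilized library was far above the highest control, and the difference was 29.9-fold (log2 4.90 ± 0.41, edgeR adjusted p = 3.87e-08). The genotype effect differed between stages by 5.64 ± 0.59 (edgeR adjusted p = 1.24e-06). Within stabilized epithelium Foxn1 was 70.6-fold higher at E16.5 than at E13.5 (edgeR adjusted p = 6.84e-08), and in controls the log2 change of 0.50 did not pass (edgeR adjusted p = 0.317). Without E13.5 control replicate 1, the highest of its group, the change in controls passed, at a log2 value of 1.08 (edgeR adjusted p = 0.0236).

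Genes of hair differentiation around Foxn1 and Foxq1 (Hoxc13, the hair keratins and their modifying enzymes) were listed from textbook knowledge with earlier results of these data known. At E13.5, 7 of the 19 tested were higher in stabilized epithelium and 0 were lower, with a median log2 fold change of 0.34 (0.18 with bounds). Prdm1, which encodes a transcriptional repressor, rose to 24.6 ± 8.96 CPM in stabilized epithelium, against 2.38 ± 0.792 CPM in controls (edgeR adjusted p = 1.18e-07), and the protein-citrullinating enzyme Padi1 to 35.3 ± 11.9 against 2.95 ± 2.00 CPM (edgeR adjusted p = 5.81e-06). At E16.5 all 19 were higher, with a median log2 fold change of 12.06 (10.99 with bounds). The hair keratins Krt31 and Krt83 reached 474 ± 124 and 638 ± 202 CPM in stabilized epithelium, against 0.0123 ± 0.0169 and 0.0382 ± 0.0702 CPM in controls (edgeR adjusted p = 3.79e-13 and 2.87e-12). Hair keratins are closely related to one another, so the split of reads among them is uncertain. Of 16 placode and ectodysplasin pathway genes listed around Foxi3 and Foxe1, 11 were higher and 2 lower at E13.5 (median log2 1.60), and 11 were higher and 1 lower at E16.5 (median log2 3.05). The called share was 81.2% at E13.5 and 75% at E16.5 here, and 36.8% and 100% for the hair list. Over all tested genes it was 14.9% and 41.7%. Ptch1, a Hedgehog receptor and target, rose at both stages, by log2 4.89 (edgeR adjusted p = 8.17e-10) and 4.92 (edgeR adjusted p = 2.02e-11).

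Foxm1, which drives genes of the G2 and M phases, differed in opposite directions at the stages. The E13.5 values were 54.2, 44.8, 65.9 and 60.2 CPM in stabilized libraries, against 27.6, 28.7, 21.0 and 14.4 CPM in controls. All stabilized libraries lay above the controls, at 2.45-fold (log2 1.30 ± 0.18, edgeR adjusted p = 3.68e-05). By E16.5 Foxm1 stood at 70.7, 70.7, 65.7, 52.2 and 75.4 CPM in stabilized libraries, against 121, 119, 118, 102 and 115 CPM in controls. All stabilized libraries lay below the controls here, with a log2 fold change of −0.78 ± 0.16 (edgeR adjusted p = 0.000506), and the effects differed by −2.08 ± 0.24 (edgeR adjusted p = 2.14e-06). In controls Foxm1 was 5.02-fold higher at E16.5 than at E13.5 (edgeR adjusted p = 4.04e-09), while in stabilized epithelium the log2 change of 0.25 did not pass (edgeR adjusted p = 0.301).

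The 20 mitotic genes listed as linked to FoxM1 took the same directions. At E13.5 all 20 were higher in stabilized epithelium (median log2 1.37), and at E16.5 0 were higher and 17 were lower (median log2 −0.81). Over all tested genes, 14.9% were called at E13.5 and 41.7% at E16.5. Bub1b, a kinase of the spindle checkpoint, had 81.6 ± 12.8 CPM in stabilized and 24.7 ± 6.75 CPM in control epithelium at E13.5 (edgeR adjusted p = 3.87e-07), and 91.6 ± 9.33 and 188 ± 8.99 CPM at E16.5 (edgeR adjusted p = 8.50e-06). Aurkb, the kinase of the chromosomal passenger complex, had 37.7 ± 5.77 CPM in stabilized and 88.1 ± 9.31 CPM in control epithelium at E16.5 (edgeR adjusted p = 2.22e-06).

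**Figure D3:**
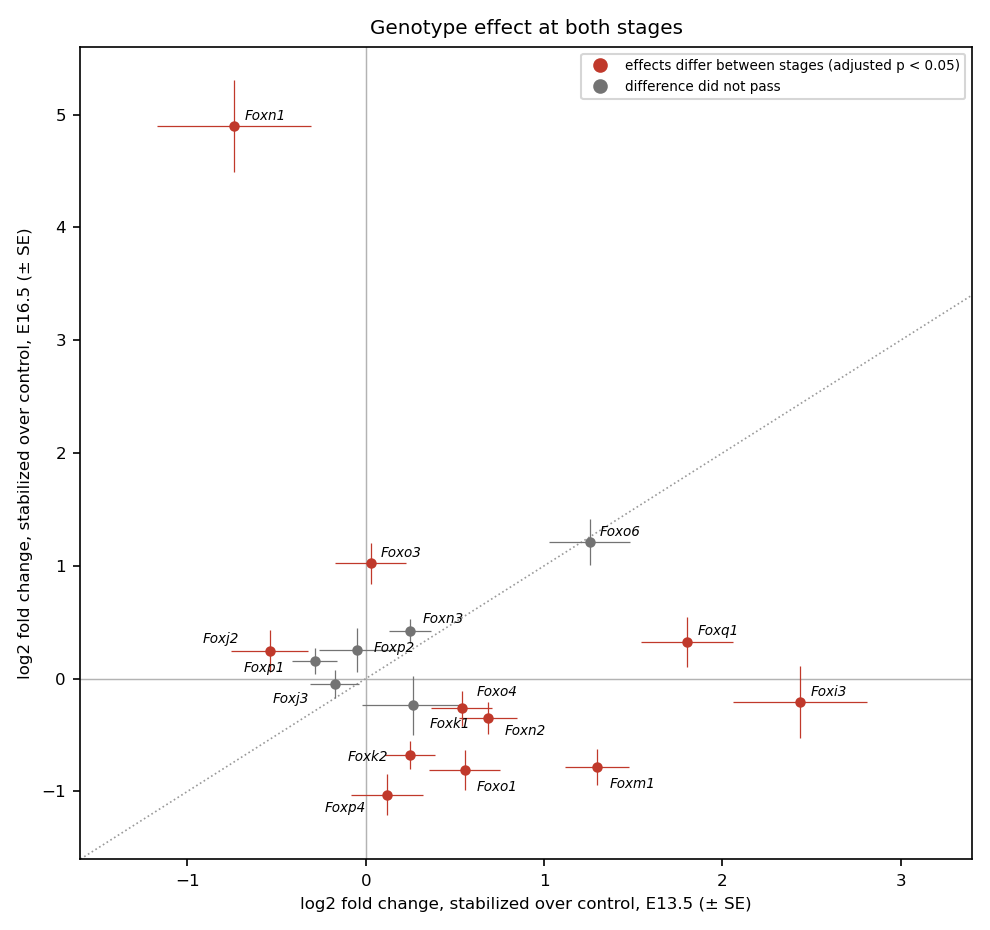
Genotype effect at E13.5 (horizontal axis) and at E16.5 (vertical axis), as log2 fold change of stabilized over control ± SE, for the 17 members with counts in every group and a group mean of at least 5 CPM. The dotted line marks equal effects; Foxo6 lies on it at 1.26 and 1.21, Foxm1 and Foxi3 lie to its right and Foxn1 far above it, and red points are members whose effects differed between stages.

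The FoxO genes differed between genotypes in separate ways. Foxo1, which in many tissues restrains growth when insulin signalling is low, had 27.2, 32.5, 36.5 and 43.6 CPM in stabilized libraries at E13.5, against 30.8, 25.0, 15.9 and 23.5 CPM in controls, with overlap and no call (edgeR adjusted p = 0.0699). It was called higher without E13.5 stabilized replicate 1, E13.5 control replicate 1 or E16.5 control replicate 1 (edgeR adjusted p-values of 0.0463, 0.0313 and 0.0343). The E16.5 values of Foxo1 were 75.6, 89.7, 88.6, 70.2 and 84.4 CPM in stabilized libraries, against 89.9, 149, 156, 168 and 154 CPM in controls. Control replicate 1 stood well below the other controls, only just above the highest stabilized library, and the log2 fold change was −0.81 ± 0.18 (edgeR adjusted p = 0.000997). Foxo1 was higher at E16.5 than at E13.5 in both genotypes, by 2.34-fold in stabilized (edgeR adjusted p = 8.87e-05) and 6.03-fold in control epithelium (edgeR adjusted p = 5.06e-09).

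Foxo3, known for arresting the cell cycle and guarding quiescent cells, went the other way at E16.5. The E13.5 values were 79.5, 109.9, 111 and 103 CPM in stabilized libraries, against 124, 109, 70.9 and 92.2 CPM in controls, a log2 fold change of 0.03 (edgeR adjusted p = 0.976). Foxo3 at E16.5 reached 313, 181, 205, 152 and 205 CPM in stabilized libraries, against 76.9, 112, 110.1, 112 and 109.7 CPM in controls. All 5 stabilized libraries were above all controls, at 2.03-fold (log2 1.02 ± 0.18, edgeR adjusted p = 0.00013), and the effect was larger than at E13.5 by 0.99 ± 0.27 (edgeR adjusted p = 0.00762). The log2 ratio of Foxo3 to Foxo1 reads within a library averaged 1.33 in stabilized and −0.44 in control libraries at E16.5. This pair was among 3 chosen after their values were seen, so the ratio is a description and no p-value is given.

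Foxo6, the FoxO protein that stays largely in the nucleus, was higher in stabilized epithelium by similar amounts at both stages. It had 41.0, 64.1, 53.3 and 50.1 CPM in stabilized libraries at E13.5, against 31.0, 20.4, 11.1 and 24.8 CPM in controls (2.39-fold, log2 1.26 ± 0.23, edgeR adjusted p = 0.00061). In E16.5 epithelium Foxo6 had 28.1, 35.0, 35.3, 26.7 and 33.8 CPM in stabilized libraries, against 12.4, 15.6, 14.9, 11.7 and 14.1 CPM in controls (2.32-fold, log2 1.21 ± 0.20, edgeR adjusted p = 7.84e-05). The genotypes overlapped at neither stage, and the change in effect was −0.04 ± 0.30 (edgeR adjusted p = 0.949). Foxo4 averaged 47.4 ± 4.28 CPM in stabilized and 32.6 ± 3.45 CPM in control epithelium at E13.5 (log2 0.54, edgeR adjusted p = 0.0399), a call lost in 12 of the 18 fits that left out 1 library, all but those without E13.5 stabilized replicate 4, E13.5 control replicate 3, E16.5 stabilized replicate 1, 3 or 4 or E16.5 control replicate 5. It was also lost with no filter on low counts (adjusted p = 0.0517) and with offsets from the deposited signal (adjusted p = 0.253). Foxo4 lies on chromosome X, and the part of the sex makeup of the E13.5 pools in its values was not tested. At E16.5 Foxo4 averaged 33.7 ± 7.76 and 40.5 ± 5.29 CPM, with no call (edgeR adjusted p = 0.181).

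Among listed genes known as FoxO targets, 2 of 19 tested were higher and 3 lower at E13.5, and 7 were higher and 6 lower at E16.5. The called share was 26.3% at E13.5 and 68.4% at E16.5, against 14.9% and 41.7% of all tested genes. Fbxo32, a ubiquitin ligase of muscle wasting, fell to 31.0 ± 4.02 CPM in stabilized epithelium, against 184 ± 24.1 CPM in controls, at E16.5 (edgeR adjusted p = 2.35e-10). The repressor gene Bcl6 rose to 47.5 ± 9.40 CPM, against 5.71 ± 0.605 CPM in controls (edgeR adjusted p = 5.88e-07). Txnip, which limits glucose uptake, was lower in stabilized epithelium at E13.5 (log2 −0.81, edgeR adjusted p = 0.00871) and higher at E16.5 (log2 1.40, edgeR adjusted p = 3.93e-06). The median log2 fold change of the list was −0.02 at E13.5 and −0.07 at E16.5.

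In the FoxP subfamily, Foxp4, which acts with Foxp1 and Foxp2 in airway epithelium, was the member called between genotypes. The E13.5 values were 209.7, 278, 231 and 175 CPM in stabilized libraries, against 245, 247, 124 and 207 CPM in controls, with overlap and no call (log2 0.12, edgeR adjusted p = 0.806). By E16.5 Foxp4 stood at 143, 203, 126, 118 and 177 CPM in stabilized libraries, against 291, 344, 345, 298 and 291 CPM in controls. Every stabilized library was below every control, with a log2 fold change of −1.03 ± 0.18 (edgeR adjusted p = 0.000131). The effects differed between stages by −1.15 ± 0.27 (edgeR adjusted p = 0.00283, and 0.0501 with offsets from the deposited signal).

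Foxp1, which holds hair follicle stem cells in quiescence, averaged 275 ± 29.3 CPM in stabilized and 335 ± 49.1 CPM in control epithelium at E13.5, and 387 ± 34.7 and 348 ± 34.6 CPM at E16.5, with no call at either stage (edgeR adjusted p = 0.152 and 0.297). Without E13.5 control replicate 3 it was lower in stabilized epithelium at E13.5 (log2 −0.39, edgeR adjusted p = 0.0265). Foxp2, best known from neural circuits of speech and song, was lower at E16.5 than at E13.5 in both genotypes, at 8.74 ± 2.75 against 21.4 ± 2.50 CPM in stabilized epithelium (edgeR adjusted p = 9.31e-05) and 7.33 ± 1.43 against 22.1 ± 1.47 CPM in controls (edgeR adjusted p = 3.19e-06). Foxp3, the factor of regulatory T cells, averaged at most 1.63 CPM in any group and was not called, and the 8 immune markers together reached at most 20.9 CPM in a library.

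For the FoxK, FoxJ and FoxN genes other than Foxn1, called genotype differences stayed under 1 on the log2 scale at both stages. Foxk2, which binds forkhead sites as a repressor, averaged 90.3 ± 15.5 CPM in stabilized and 144 ± 7.68 CPM in control epithelium at E16.5 (log2 −0.68, edgeR adjusted p = 0.00022, and 0.124 with offsets from the deposited signal). Its paralogue Foxk1 was not called in any comparison with all libraries, and in E13.5 controls it ranged from 26.6 CPM in replicate 3 to 113 CPM in replicate 1. Without E13.5 control replicate 1 or 2, Foxk1 was higher at E16.5 than at E13.5 in controls (edgeR adjusted p = 0.0266 and 0.0331). Foxn2, a little-studied relative of Foxn3, averaged 32.4 ± 2.52 CPM in stabilized and 20.1 ± 4.25 CPM in control epithelium at E13.5 (log2 0.69, edgeR adjusted p = 0.00589, and 0.256 with those offsets). At E16.5 Foxn2 averaged 40.2 ± 7.64 and 51.2 ± 4.34 CPM, with no call (log2 −0.35, edgeR adjusted p = 0.0599). It was called lower at E16.5 in 4 fits that left out 1 library and in 2 other alternatives. Foxn3, a repressor linked to the DNA damage checkpoint, averaged 170.0 ± 23.4 CPM in stabilized and 127 ± 13.6 CPM in control epithelium at E16.5 (log2 0.42, edgeR adjusted p = 0.00282, and 0.0759 with those offsets).

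Foxj2 averaged 17.9 ± 2.52 CPM in stabilized and 26.1 ± 8.88 CPM in control epithelium at E13.5 (edgeR adjusted p = 0.102). Its E13.5 control replicate 3 had 13.51 CPM, the other controls having 27.7, 28.7 and 34.4 CPM, and without that library Foxj2 was lower in stabilized epithelium (log2 −0.75, edgeR adjusted p = 0.00252). Foxj3 lay between 47.1 and 75.8 CPM in all libraries and was called in no comparison. Foxj1, the master gene of motile cilia, averaged at most 1.26 CPM in any group and was not called. Of 14 tested motile cilia genes, 0 were higher and 1 was lower at E13.5 in edgeR (6 at an unadjusted p under 0.05), and 3 were higher and 0 were lower at E16.5 (5 at an unadjusted p under 0.05). These shares of 7.14% and 21.4% lay below the 14.9% and 41.7% of all tested genes. Rfx3, a factor that works beside Foxj1, was lower in stabilized epithelium at E13.5 (log2 −0.39, edgeR adjusted p = 0.0329) and higher at E16.5 (log2 0.85, edgeR adjusted p = 3.05e-06).

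Foxa2, a factor of endoderm and floor plate that is switched on by Hedgehog signalling in the neural tube, was the FoxA gene called between genotypes. At E13.5 it had 0.103, 0, 0.762 and 0.523 CPM in stabilized libraries, and 0 counts in the controls, at least 14.8-fold higher (edgeR adjusted p = 0.0129). The E16.5 values of Foxa2 were 4.90, 3.09, 4.26, 2.57 and 5.30 CPM in stabilized libraries, and 0 counts in all 5 controls, at least 199.7-fold higher (edgeR adjusted p = 0.000141). Counts of Foxa2 were thus absent from the 9 control libraries at these depths. Foxa1, the FoxA gene of adult luminal cells, averaged 0.813 ± 0.875 CPM in stabilized and 0.419 ± 0.357 CPM in control epithelium at E16.5 (edgeR adjusted p = 0.647), and 0.0245 ± 0.0491 CPM and 0 counts at E13.5. Foxa3, a liver factor, averaged 0.243 ± 0.206 CPM in stabilized and 0.954 ± 0.545 CPM in control epithelium at E16.5 (edgeR adjusted p = 0.235, and 0.0466 with the libraries of that stage alone).

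Luminal and hormone genes listed around Foxa1 were mixed, with 2 of 14 tested higher and 6 lower in stabilized epithelium at E13.5, and 4 higher and 4 lower at E16.5. The called share was 57.1% at each stage, against 14.9% of all tested genes at E13.5 and 41.7% at E16.5. Gata3, a partner of Foxa1 in luminal cells, was lower at E13.5, at 397 ± 59.1 CPM in stabilized and 1048 ± 179 CPM in control epithelium (edgeR adjusted p = 2.81e-05). Greb1, an oestrogen-responsive gene, was higher at E13.5, at 57.0 ± 3.31 against 22.1 ± 11.7 CPM (edgeR adjusted p = 0.000714). Krt19, a keratin of luminal cells, was higher at E16.5, at 30.2 ± 6.68 against 4.96 ± 1.80 CPM (edgeR adjusted p = 3.26e-06). Tfap2c was lower at E16.5, at 62.2 ± 17.0 against 223 ± 14.4 CPM (edgeR adjusted p = 7.58e-08).

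The remaining called members stayed below 3 CPM in group mean. Foxl2, known from the ovary and eyelid, had 0.191, 0.820, 0.136, 0.107 and 0.407 CPM in stabilized libraries at E16.5 and 0 counts in the controls, at least 17.2-fold higher (edgeR adjusted p = 0.00282). Foxd3, a neural crest factor, had 0.0383, 0.0316, 0.136, 0.143 and 0 CPM in stabilized libraries at E16.5, against 0.730, 1.03, 1.28, 0.972 and 0.178 CPM in controls. It was lower in stabilized epithelium without overlap (log2 −3.51, edgeR adjusted p = 0.039), a call lost without E16.5 stabilized replicate 1, 2 or 5 (adjusted p of 0.0719 to 0.0808), with offsets from the deposited signal (0.053) and with no filter on low counts (0.0945). That call was tested in 21 alternatives, against 27 for the call of Foxc1. Summed markers of melanocytes ran from 104 to 195 CPM in stabilized and from 73.1 to 139 CPM in control libraries at E16.5, and those of neural and Schwann cells from 27.6 to 52.2 and from 8.76 to 19.4 CPM; their part in the Foxd3 values was not tested. Foxd2 averaged 0.617 ± 0.392 CPM in stabilized epithelium at E13.5, with counts in 4 of 4 libraries. It had 0 counts in the E13.5 controls and was not called at that stage. At E16.5 Foxd2 averaged 0.283 ± 0.521 CPM in stabilized epithelium and was called higher there (edgeR adjusted p = 0.038) from counts in 2 of 5 libraries. It lost that call in DESeq2 (adjusted p = 0.0631) and in 8 fits that left out 1 library, namely E13.5 stabilized replicate 3 or 4, E16.5 stabilized replicate 4 or any E16.5 control, and was not tested without E16.5 stabilized replicate 2. The mesenchymal genes Foxf1 and Foxl1 were not called between genotypes. Foxr1 was called in no comparison.

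With stage, 13 of the 31 tested members were higher and 6 were lower at E16.5 than at E13.5 in control epithelium, with 47.5% of all tested genes called (24.9% higher, 22.6% lower). In stabilized epithelium 8 were higher and 6 were lower, with 28% of all tested genes called (2852 genes higher and 1990 lower). In controls the changes included Foxi3, Foxq1, Foxm1 and Foxo1, given above, and Foxn2 (2.55-fold, edgeR adjusted p = 9.67e-07). Foxn1, Foxo3, Foxp1 and Foxj2 were higher at E16.5 in stabilized epithelium (Foxp1 log2 0.49, edgeR adjusted p = 0.00457, and Foxj2 log2 0.83, edgeR adjusted p = 0.00476) and did not pass in controls with all libraries. Foxo6 was lower at E16.5 in both, by log2 values of −0.71 in stabilized (edgeR adjusted p = 0.0159) and −0.67 in control epithelium (edgeR adjusted p = 0.0144). The Foxo6 call was lost without E13.5 stabilized replicate 2 in stabilized epithelium (edgeR adjusted p = 0.0668) and without E13.5 control replicate 1 in controls (edgeR adjusted p = 0.0919, log2 −0.45). Foxl1 was lower at E16.5 in both as well, at 0.428 ± 0.241 against 2.89 ± 0.665 CPM in stabilized epithelium (edgeR adjusted p = 0.0239) and 0.328 ± 0.284 against 1.79 ± 0.418 CPM in controls (edgeR adjusted p = 0.0278). The Foxl1 call was lost without E13.5 stabilized replicate 4 in stabilized epithelium (edgeR adjusted p = 0.0571). In controls it was lost without E13.5 control replicate 1 or E16.5 control replicate 3 or 5 and with the compared groups alone (edgeR adjusted p-values of 0.0516 to 0.059). Foxf1 was called lower at E16.5 in stabilized epithelium, at 0.0357 ± 0.0798 against 1.28 ± 0.239 CPM (edgeR adjusted p = 0.0326). The same held in controls, at 0.0469 ± 0.105 against 1.00 ± 1.04 CPM (edgeR adjusted p = 0.0373). These Foxf1 calls were lost in 7 and 8 fits that left out 1 library.

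**Figure D4:**
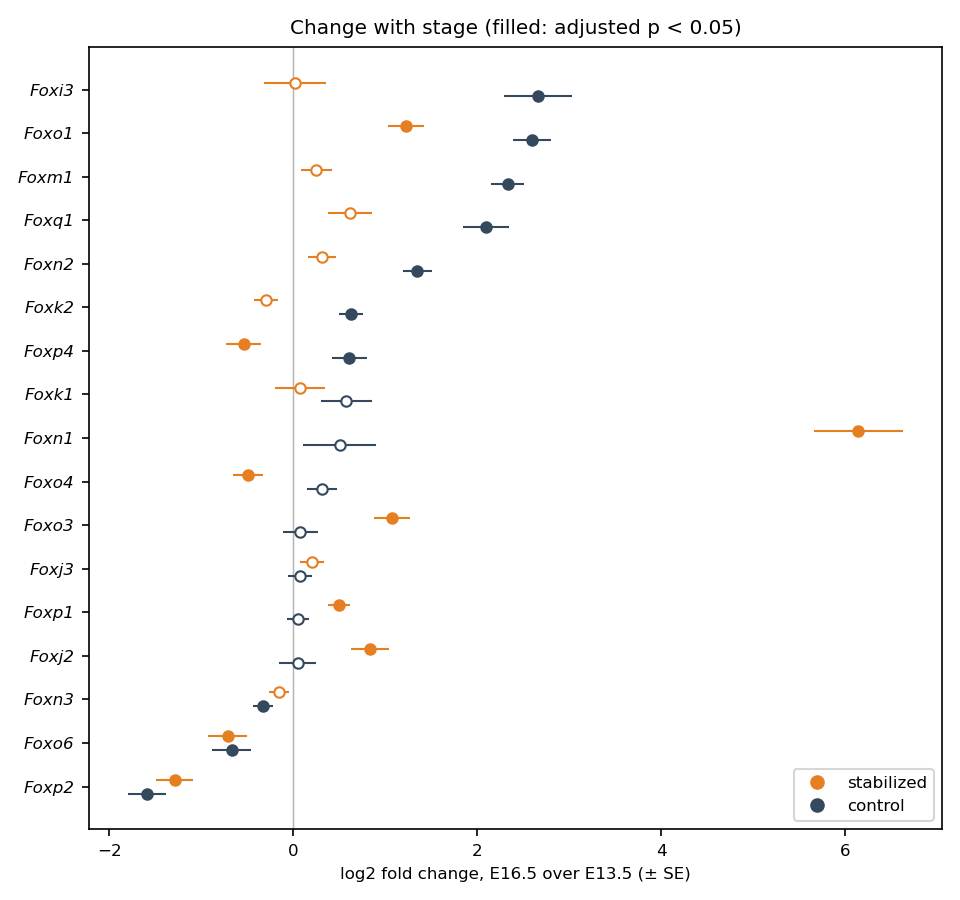
Change with stage, as log2 fold change of E16.5 over E13.5 ± SE (horizontal axis), in stabilized (orange) and control (dark blue) epithelium for the 17 members with counts in every group and a group mean of at least 5 CPM. Filled points passed an edgeR adjusted p of 0.05; Foxi3 and Foxm1 stand at 2.66 and 2.33 in controls and near 0 in stabilized epithelium, Foxn1 stands at 6.14 in stabilized epithelium alone, and Foxo6 and Foxp2 lie left of 0 in both.

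The genotype effect itself differed between stages for 15 of the 31 tested members, with 32.2% of all tested genes called (15.6% higher, 16.6% lower). It was more positive at E16.5 for 3 of them (Foxj2, Foxn1 and Foxo3) and more negative for 12 (Foxa3, Foxc1, Foxd3, Foxe1, Foxi3, Foxk2, Foxm1, Foxn2, Foxo1, Foxo4, Foxp4 and Foxq1). Of these 12, Foxa3, Foxc1, Foxd3 and Foxe1 had 0 counts in E13.5 controls, so the size of their change is undefined. For Foxe1 the bound at E13.5 lay close to the fold at E16.5, both given above. Without E13.5 control replicate 3, 5 members were more positive at E16.5. The call for Foxe1 (edgeR adjusted p = 0.0351) was lost in DESeq2 (adjusted p = 0.134) and without E13.5 stabilized replicate 3, any E13.5 control or E16.5 control replicate 1, 3 or 5. That for Foxj2 (edgeR adjusted p = 0.042) was lost without E13.5 stabilized replicate 1 or 4, E13.5 control replicate 1, 2 or 4, E16.5 stabilized replicate 1 or 5, or E16.5 control replicate 1, 2 or 4. The calls for Foxa3 and Foxd3 each rested on a library. For Foxa3 (edgeR adjusted p = 0.0307) the counts in E13.5 stabilized epithelium were 10, all in replicate 1, and without it the adjusted p was 0.99994. The Foxa3 call was also lost without E13.5 control replicate 1 or 2 or E16.5 control replicate 5 (adjusted p-values of 0.0505 to 0.0524). For Foxd3 (edgeR adjusted p = 0.0345) the counts in E13.5 stabilized epithelium were 3, all in replicate 2, and without it the adjusted p was 0.99996. The Foxd3 call was also lost without E13.5 control replicate 1, 2 or 4 or E16.5 stabilized replicate 1, with no filter on low counts and in DESeq2 (adjusted p-values of 0.0506 to 0.0567). It was tested in 21 alternatives, against 26 for the call of Foxc1. With offsets from the deposited signal the calls of Foxj2, Foxk2, Foxn2, Foxo4 and Foxp4 were lost, at adjusted p-values of 0.0501 to 0.356. Over all tested genes, those offsets gave 3891 calls of a changed effect, against 5562 in the main fit. The genotype comparisons share no library, whereas each of them shares its libraries with both stage comparisons, whose values are therefore not separate evidence.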

How the data were processed

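The members and gene lists were chosen with earlier results of these data known. The deposited table holds estimated counts per gene, already whole numbers, made per the submitters' processing notes with FastQC 0.11.8, MultiQC 1.9, Trimmomatic 0.39, Salmon 0.99.0, DESeq2 and the build mm10, with no settings given. A second deposited table holds a signal, counts divided by factors that differed between genes; it gave offsets for 1 alternative. Per the labels, TRI Reagent and columns were used for RNA and the Ovation SoLo kit for libraries.

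All 18 libraries (26768810 to 36922108 counts) were fitted in edgeR 4.0.16 (R 4.3.3, limma 3.58.1): filterByExpr with a minimum count of 10 kept 17269 genes, followed by TMM factors and the quasi-likelihood fit in its robust form, each group having 1 mean, with Benjamini-Hochberg adjustment over all tested genes and a threshold of 0.05. DESeq2 1.42.0 was an alternative. A fold against a group at 0 used a floor of 3 counts over that group and covers counting error only. Positions and exon lengths came from GENCODE M21 (GRCm38), where all 40 members were found.

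Values per library are given for called members that reached 5 CPM in a group and were among the 8 largest changes in a genotype comparison, or the 4 largest of the stage comparison in controls or of the change in genotype effect, or that were at 0 in a group. Foxa2, Foxl2, Foxd3 and the controls of Foxj2 are outside that rule and were added after their values were seen. Of each list, genes come from the 3 smallest adjusted p-values per genotype comparison. Replicates differed by more than sampling noise (chi-square per gene of 31.0 or more), so no library was counted as a repeat.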

Additional observations from a re-analysis of the deposited data

Results flagged for a closer look

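In 41 groups of members named by library, 2 held a library far from the others by Dixon's 95% value, and chance alone flags about 1 group in 20. Both were E16.5 control replicate 1, which had 89.9 CPM of Foxo1, the other controls having 149 to 168 CPM, and 76.9 CPM of Foxo3, the other controls having 109.7 to 112 CPM.

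The genotype effect differed between E16.5 and E13.5, by edgeR's test of that difference, for 15 of the 31 tested members. Over all tested genes, 32.2% were called. Those more positive at E16.5 were Foxn1 (adjusted p = 1.24e-06), Foxo3 (0.00762) and Foxj2 (0.042). Those more negative at E16.5 were Foxc1 (1.96e-06), Foxm1 (2.14e-06), Foxi3 (0.000397), Foxo1 (0.000574), Foxk2 (0.000837), Foxn2 (0.00106), Foxq1 (0.00208), Foxp4 (0.00283), Foxo4 (0.0112), Foxa3 (0.0307), Foxd3 (0.0345) and Foxe1 (0.0351). The Foxa3 and Foxd3 values depended on E13.5 stabilized replicate 1 and replicate 2, without which the adjusted p was 0.99994 for Foxa3 and 0.99996 for Foxd3. Foxa3, Foxc1, Foxd3 and Foxe1 had 0 counts in E13.5 controls, so the size of their change is undefined.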

How the results depend on the processing

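Of 73 calls of members over the 5 comparisons, 47 held under every alternative in which the gene was tested, and 0 reversed. Low members were not tested in every alternative. The call of Foxd3 with stage in controls was tested in 22, against 27 for that of Foxc1. RLE size factors gave 5 members with a more positive effect at E16.5 (3 by TMM). Offsets from the deposited signal gave 1 lower member at E13.5 (Foxj2, against 0 without) and 3 lower at E16.5 (5 without). Over all tested genes, they gave 1709 calls at E13.5 (2569 without) and 5492 at E16.5 (7194 without). With the compared groups alone, 23 members were tested and 3 were lower with stage in controls (6 in the shared fit). Upper-quartile factors moved the median log2 change with stage over all genes by −0.106 in stabilized and −0.135 in control epithelium. Leaving out each library in turn gave 9 to 10 higher and 0 to 2 lower members at E13.5, 9 to 10 higher and 4 to 6 lower at E16.5, 2 to 5 more positive and 9 to 12 more negative changes of effect, 7 to 9 higher and 2 to 6 lower with stage in stabilized epithelium (3 lower without E13.5 stabilized replicate 1 and 2 without replicate 2), and 12 to 15 higher and 4 to 6 lower in controls. Leaving out E13.5 control replicate 3 and E16.5 stabilized replicate 4 together, an alternative chosen after seeing the data, gave 10 higher and 2 lower at E13.5, 10 and 5 at E16.5, and 5 more positive and 10 more negative changes of effect. Same-numbered libraries of the genotypes correlated at −0.0906 to 0.172 at E13.5 and −0.0995 to 0.131 at E16.5 in their deviations, and not every number matched itself best. With so few libraries, these values cannot show whether a number stands for a shared litter. A replicate block gave 9 higher and 0 lower members at E13.5 and 9 higher and 4 lower at E16.5, and the calls of Foxa2 at E13.5 (adjusted p = 0.0636), Foxd2 (0.162) and Foxd3 (0.0578) at E16.5 were lost. Depth limits the low members: 3 counts over a group is the least that could be set against a group at 0.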
